A study of Homo sapiens with 2 samples.

Results

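The genes described here are the hydrolases of the lysosome, its membrane proteins, the proton pump that acidifies it and the transcription factors TFEB and TFE3, 49 genes in all. They were measured in PC3, an established human line grown from a prostate cancer that had spread to bone. RNA from a culture treated with DMSO, the solvent, was hybridized to one array, and RNA from a culture treated with 10 µM fluphenazine, an antipsychotic of the phenothiazine class and a weak base, to another. Both cultures were of the same line and were kept in RPMI-1640 medium with 10% fetal bovine serum. The series is about fluphenazine as an agent against castration-resistant prostate cancer. How long the cells were treated is not stated in the sources used here. With 1 array for each treatment, no value below has an error between cultures and no test across samples could be made.

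Members were taken as every probe set whose single annotated gene, under its current symbol, is on the list. This gave 115 probe sets for 47 of the 49 genes, out of 18393 genes with such a probe set. The probe sets of GLB1 (beta-galactosidase) and ATP6V1F (a pump subunit) carry a second gene in the annotation, so these 2 genes were not analysed here. Each gene is given by its probe set with the highest mean of both arrays. A gene counted as above the floor when the higher of its values reached 6.19 on the log2 scale, the median of the higher values across genes. The floor is a rank and not a detection call. It was passed by 42 members, while CTSD, HEXA, NAGLU, ARSA and ARSB lay under it. A difference is always log2 signal with fluphenazine minus log2 signal with DMSO.

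Lysosomes are acidic compartments in which soluble hydrolases break down protein, glycans and lipids. The acid comes from the vacuolar ATPase, whose cytosolic V1 sector splits ATP and whose membrane V0 sector carries protons into the lumen. Weak bases that are also lipophilic, as phenothiazines are, become protonated in the lumen and collect there. TFEB and TFE3 move to the nucleus when the kinase mTORC1 at the lysosomal surface is inactive, and bind a short palindromic sequence, called CLEAR, in promoters of lysosomal genes. Movement of a protein between compartments is not visible on an expression array.

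That sequence was looked for in the RefSeq promoters of build GRCh38.p14, each running from 250 bases before a transcript start to 50 bases after it. The table held 48 promoters of 35 members. The letters TCACGTGA, which read the same on both strands, stood in promoters of 7 of these 35 genes, against 1.18% of the 27305 genes in the table. The shorter CACGTG, which lies within it, stood in promoters of 12 members (34.3%) and of 8.77% of all genes. The longer form of 10 letters, with G before and C after the 8, stood in promoters of 3 members (8.57%) and of 0.421% of all genes. The windows of 30 bases that follow hold the TCACGTGA matches of the 7 members and are shown because these letters are what TFEB and TFE3 are known to bind. They are written 5′ to 3′ in the direction of the gene, with the matching letters in capitals (10 letters where the longer form is present, otherwise 8).
CTSA (chr20:45891298-45891327, plus strand): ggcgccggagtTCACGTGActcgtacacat
GAA, upstream match (chr17:80101493-80101522, plus strand): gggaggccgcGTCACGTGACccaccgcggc
GAA, downstream match (chr17:80101538-80101567, plus strand): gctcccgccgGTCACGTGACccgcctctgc
LAMP1, upstream match (chr13:113297199-113297228, plus strand): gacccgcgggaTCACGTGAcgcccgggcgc
LAMP1, downstream match (chr13:113297226-113297255, plus strand): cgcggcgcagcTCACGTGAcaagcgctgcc
MCOLN1, upstream match (chr19:7522571-7522600, plus strand): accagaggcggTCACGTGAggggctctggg
MCOLN1, downstream match (chr19:7522598-7522627, plus strand): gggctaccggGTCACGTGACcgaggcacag
CLN3 (chr16:28492058-28492087, minus strand): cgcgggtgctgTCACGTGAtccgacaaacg
ATP6V0D1 (chr16:67481199-67481228, minus strand): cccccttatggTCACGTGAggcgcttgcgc
ATP6V1G1 (chr9:114587699-114587728, plus strand): acgctgtgcgGTCACGTGACaacgggggcg

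In all of these windows the first of the 8 letters lay before the transcript start. The distance was 2 bases in CLN3 and 77 bases in the upstream match of GAA. The CLN3 match lies inside the gene span given further below, so the transcript start used is not the outer end of that gene. GAA, LAMP1 and MCOLN1 held the letters at 2 places each. A match describes the sequence and is no measure of binding in these cells. The letters are known from promoters of lysosomal genes, so their share among the members is background and no result of these arrays.

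Most members differed little between the arrays. Of the 42 above the floor, 27 were higher with fluphenazine, 14 were lower and ATP6V0D1 had the same value on both. Over all 9197 genes above the floor, 48.2% were higher and 51.8% lower. The counts of higher genes in each group below have this 48.2% as their background. The median difference of the members was 0.04 (quartiles -0.03 and 0.10), against -0.01 for all genes (quartiles -0.10 and 0.09). Each array read RNA of a whole culture, so a change in some cells and a smaller change in all cells cannot be told apart. A difference of at most 0.1 in size was seen for 27 of the 42 members and for 50.7% of all genes above the floor. At least 1.2-fold higher was 1 member, ATP6V0A2, against 4.84% of genes above the floor. At least 1.2-fold lower were 3 members, CTSC, CLN3 and ATP6V0A1, against 4.69%. Of these, ATP6V0A1 passed the floor only through the DMSO array (6.33, against 5.98 with fluphenazine). CLN3 was the one member above the floor past 1.5-fold, which 0.294% of genes above the floor passed downwards. No member reached 2-fold, which 0.0326% of genes above the floor did in each direction.

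The small positive median of the members changed with the choice of probe set. It was 0.00 when all probe sets of a gene were averaged and 0.01 when each of the 71 member probe sets above the floor was counted on its own. With averaged probe sets 21 of 41 members above the floor were higher. Over all genes above the floor 44.7% were then higher, with a median of -0.02. As a scale for such values, probe sets of one gene above the floor had a pooled SD of 0.13 in their differences over 3669 genes, and 0.10 over the 16 members that had several. These numbers describe the spread among probe sets within the arrays, whatever its source, and do not contain the variation between cultures. Bacterial poly-A transcripts added to the RNA before labelling were lower on the fluphenazine array at all 24 probe sets, by a median of 0.22, and the part of this in the differences below was not tested.

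**Figure D1:**
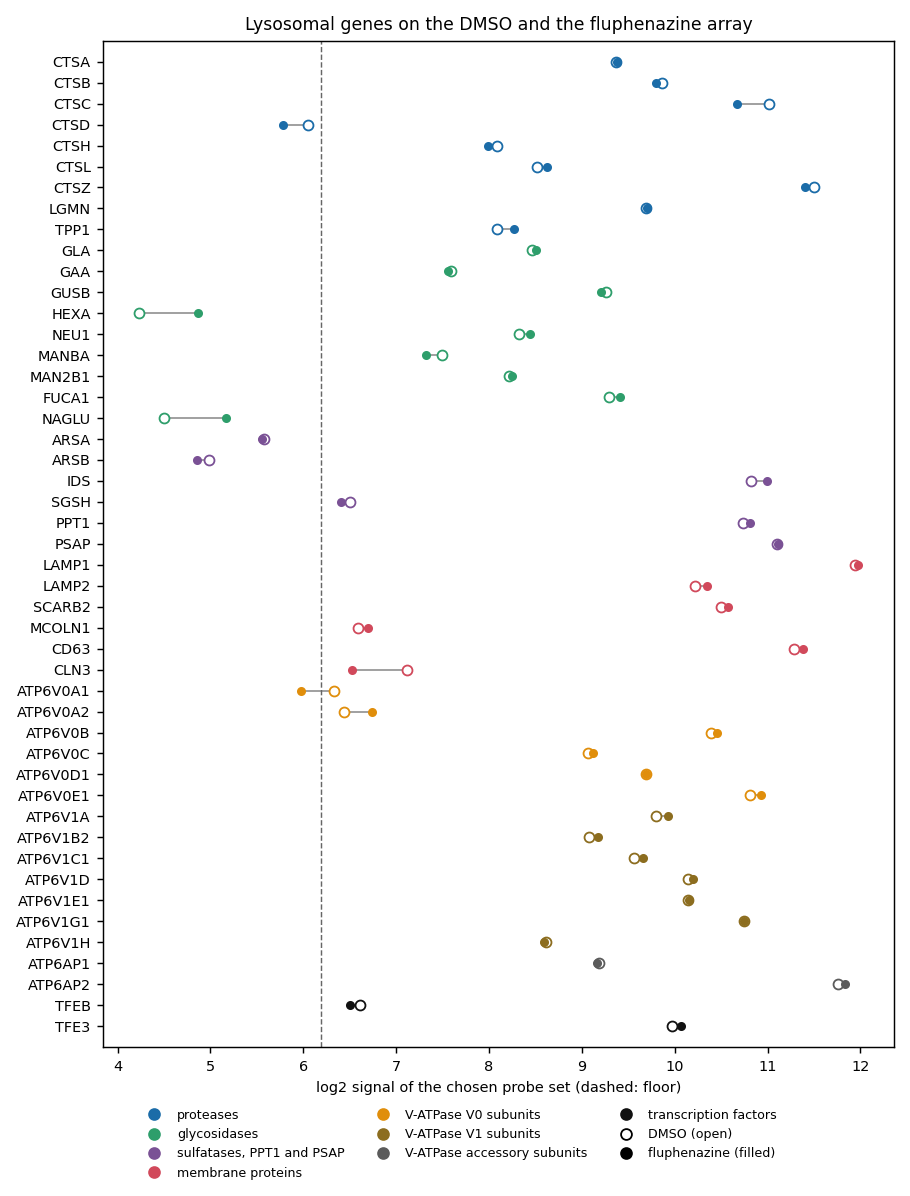
Log2 signal of 47 lysosomal genes (one row each) on the DMSO array (open circles) and the fluphenazine array (filled circles), coloured by role, with the floor of 6.19 as a dashed line. Most pairs nearly coincide, while CTSC, CLN3 and ATP6V0A1 lie to the left with fluphenazine and ATP6V0A2 to the right. HEXA and NAGLU lie to the right under the floor.

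Among the proteases, the gene that stood apart was CTSC, which encodes cathepsin C (dipeptidyl peptidase 1), the enzyme that trims the N termini of serine protease precursors and so activates them. It measured 11.02 with DMSO and 10.67 with fluphenazine on the log2 scale, a difference of -0.35 or 1.28-fold lower. Only 1.90% of genes above the floor had a difference as low. The other probe sets of CTSC gave the same direction: 10.74 against 10.20 (-0.54), 10.33 against 9.95 (-0.38) and, just under the floor, 6.16 against 5.70 (-0.47). All 4 probe sets were therefore lower by more than the pooled SD of 0.13, and averaging them gave -0.43. CTSC lies at chr11:88293592-88337736 (GRCh38.p14). The 250 bases before its start are shown because they hold none of the letters CACGTG, unlike the promoters printed above.
CTSC (chr11:88337737-88337986, minus strand): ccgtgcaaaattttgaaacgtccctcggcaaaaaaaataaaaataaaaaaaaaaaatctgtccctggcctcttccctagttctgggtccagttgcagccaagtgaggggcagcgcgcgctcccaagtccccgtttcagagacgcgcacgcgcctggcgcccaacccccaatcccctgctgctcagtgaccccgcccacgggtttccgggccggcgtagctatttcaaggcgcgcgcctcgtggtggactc

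The other proteases were split in direction. TPP1, the tripeptidyl peptidase lost in a childhood form of neuronal ceroid lipofuscinosis, had 8.09 with DMSO and 8.26 with fluphenazine (0.18), but its second probe set above the floor gave 0.00. CTSL, a cysteine endopeptidase, had 8.52 and 8.62 (0.10). Both differences are close to the spread among probe sets of one gene. CTSZ, a carboxypeptidase, had 11.50 with DMSO and 11.40 with fluphenazine (-0.09), and CTSH, an aminopeptidase, 8.08 and 7.99 (-0.09). CTSB, a cysteine protease, was at 9.86 and 9.80 (-0.07), with its 4 probe sets above the floor from -0.07 to 0.01. CTSA (protective protein) and LGMN (asparaginyl endopeptidase) were at 0.01 each. Thus of 8 proteases above the floor 4 were higher and 4 lower, with a median of -0.03, or 0.01 without CTSC. CTSD, the main aspartic protease, lay under the floor at 6.05 and 5.78 (-0.26), read by a single probe set. A difference of at least 1.2-fold was seen downwards in 12% of genes under the floor.

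Glycosidases, which remove sugars from glycoproteins and glycolipids, showed only small differences. Of 7 above the floor 4 were higher, with a median of 0.03, and none reached 1.2-fold. FUCA1, the alpha-fucosidase, had 9.30 with DMSO and 9.41 with fluphenazine (0.11). Its second probe set, very dim at 2.95, gave -0.59, so that the average of both was -0.24. NEU1, the sialidase, had 8.33 and 8.44 (0.11). MANBA, the beta-mannosidase, had the lowest difference of the group, with 7.49 and 7.32 (-0.17), and GUSB, the beta-glucuronidase, was at 9.26 and 9.21 (-0.06). GLA (alpha-galactosidase), MAN2B1 (alpha-mannosidase) and GAA (acid alpha-glucosidase) lay between -0.04 and 0.04. The spread among these 7 genes, from -0.17 to 0.11, was near that among probe sets of one gene.

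HEXA and NAGLU had the largest positive differences of any member, and both lay under the floor. HEXA, the alpha subunit of beta-hexosaminidase, had 4.23 with DMSO and 4.86 with fluphenazine (0.63), and its other 3 probe sets gave 0.23, -0.16 and -0.24. NAGLU, which acts on heparan sulphate, had 4.50 and 5.16 (0.67), and its other probe set gave -0.04. In neither gene did the other probe sets share the size of the difference. Among genes under the floor 1.12% were at least 1.5-fold higher. The differences of genes under the floor also had a wider robust SD, 0.21 against 0.14 above it.

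The sulfatases and the remaining soluble proteins were also close to 0. IDS, the iduronate sulfatase, was read by 10 probe sets, 5 of them above the floor. The chosen one had 10.82 with DMSO and 10.99 with fluphenazine (0.17), and those above the floor ranged from -0.12 to 0.22. PPT1, a thioesterase that removes fatty acids from proteins, had 10.74 and 10.81 (0.08). PSAP, the precursor of the saposins that present lipids to hydrolases, had 11.10 and 11.12 (0.01), and its other probe set gave -0.10. SGSH, the heparan sulfamidase, was at 6.51 and 6.41 (-0.10). The probe sets of IDS and PSAP thus went both ways. ARSA and ARSB, under the floor, were at -0.02 and -0.12. Over hydrolases and cofactors together, 11 of 19 above the floor were higher and 8 lower, with a median of 0.01.

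**Figure D2:**
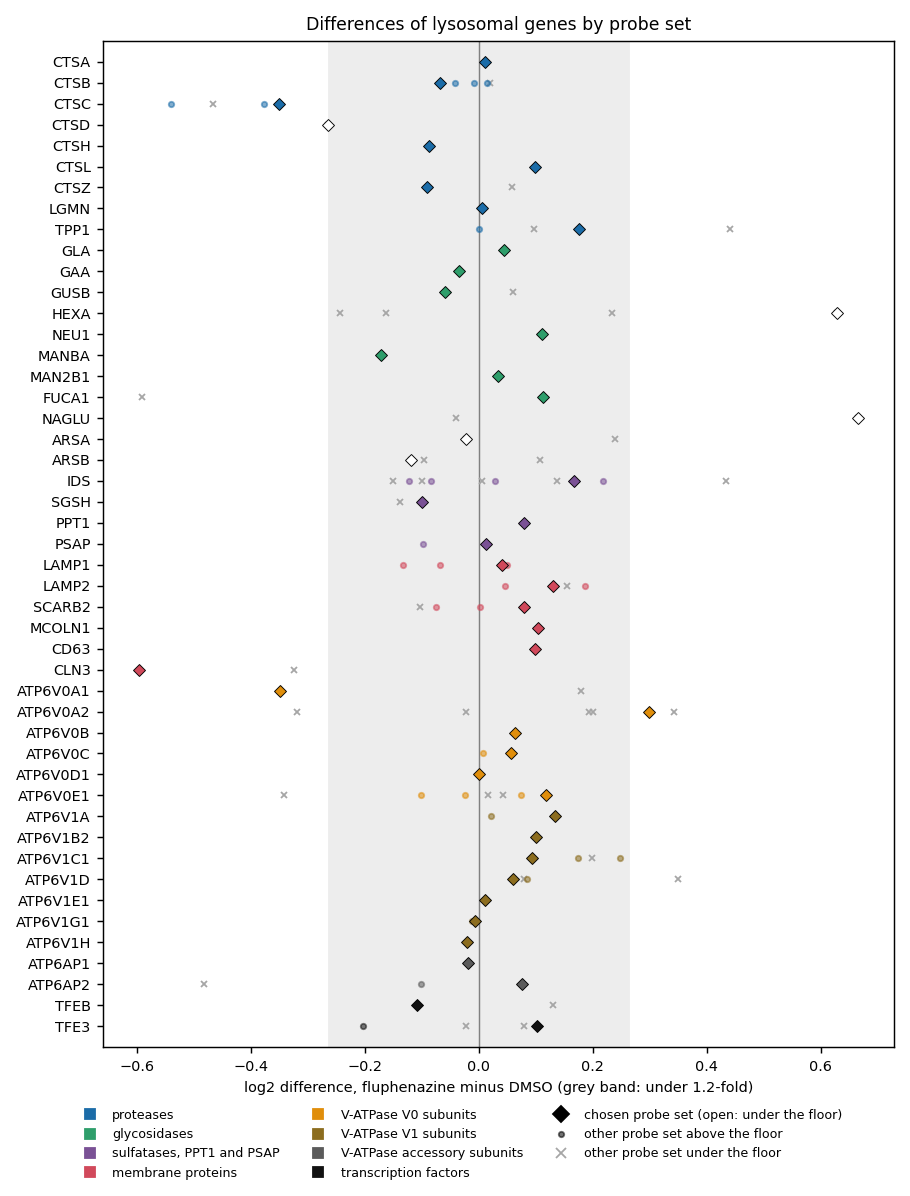
Log2 difference (fluphenazine minus DMSO) of 47 lysosomal genes, with the chosen probe set as a diamond (open where under the floor), other probe sets above the floor as dots and those under it as crosses. The grey band marks differences under 1.2-fold. The probe sets of CTSC all lie to the left of the band, from -0.54 to -0.35, whereas those of IDS, LAMP1 and ATP6V0E1 lie on both sides of 0.

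The membrane proteins had a median of 0.09, and 5 of 6 were higher with fluphenazine, beside 48.2% of all genes above the floor. With all probe sets of a gene averaged, the median was 0.04, and LAMP1 and SCARB2 were at -0.03 and -0.02. LAMP2, an abundant glycoprotein of the limiting membrane that also serves in chaperone-mediated autophagy, had 10.22 with DMSO and 10.35 with fluphenazine (0.13). Its other probe sets gave 0.05, 0.19 and, under the floor, 0.15, so that all 4 were higher. MCOLN1, the calcium channel TRPML1, had 6.59 and 6.70 (0.10), and the tetraspanin CD63 had 11.28 and 11.38 (0.10), each by 1 probe set. SCARB2, which carries glucocerebrosidase to the lysosome, had 10.50 and 10.58 (0.08), with other probe sets above the floor at 0.00 and -0.08. LAMP1, the partner of LAMP2, had 11.94 and 11.98 (0.04), and its 4 probe sets ranged from -0.13 to 0.05. Of the 5 higher genes, LAMP2 alone had several probe sets above the floor that all went the same way. No difference among the 5 exceeded 0.13.

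CLN3 was the exception among the membrane proteins and had the lowest difference of all members. It encodes battenin, a multi-span protein whose loss causes the juvenile form of neuronal ceroid lipofuscinosis. With DMSO it was at 7.12 and with fluphenazine at 6.52, a difference of -0.60 or 1.51-fold lower, and 0.28% of genes above the floor had a difference as low. A second probe set, just under the floor, gave -0.32. Both probe sets were lower, though they differed in size by more than the pooled SD of probe sets. The identifiers of both end in _s_at or _x_at, which marks probes that may match more than 1 transcript, so no CLN3 value remained without such probe sets. CLN3 lies at chr16:28466653-28492082 (GRCh38.p14).

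The proton pump differed little as a whole. Of 15 subunits above the floor 10 were higher, 4 lower and 1 equal, with a median of 0.06. Over all genes above the floor 48.2% were higher. By the chosen probe sets the largest differences lay in a single subunit position. This did not hold with the probe sets of a gene averaged, where ATP6V1C1 (0.18) and ATP6AP2 (-0.17) differed most. Subunit a of the V0 sector, through which protons pass and which directs the pump to its compartment, exists as several paralogues. ATP6V0A1 (a1) had 6.33 with DMSO and 5.98 with fluphenazine (-0.35, or 1.27-fold lower), whereas ATP6V0A2 (a2) had 6.44 and 6.74 (0.30, or 1.23-fold higher). The paralogue TCIRG1 (a3) was at 7.82 and 7.68 (-0.13). The 2 larger differences went in opposite directions and both rested on dim probe sets. The other probe set of ATP6V0A1, at 4.09 with DMSO, gave 0.18, and averaging put the gene at -0.08. The other 5 probe sets of ATP6V0A2, all under the floor, ranged from -0.32 to 0.34, and averaging put it at 0.12. The chosen one is of the _s_at kind, and the brightest that is neither _s_at nor _x_at gave -0.02. ATP6V0A1 lies at chr17:42458878-42522579 and ATP6V0A2 at chr12:123712353-123761755 (GRCh38.p14).

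The remaining V0 subunits differed little. ATP6V0E1, a small membrane subunit, had 10.81 with DMSO and 10.93 with fluphenazine (0.12), but its 4 probe sets above the floor ranged from -0.10 to 0.12. The proteolipid subunits that form the rotor ring, ATP6V0B and ATP6V0C, were at 10.39 and 10.45 and at 9.07 and 9.12, each a difference of 0.06. ATP6V0D1, which links the ring to the stalk, was at 9.69 on both arrays. Without the a subunits the V0 differences thus lay between 0.00 and 0.12.

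In the V1 sector 5 of 7 subunits were higher, beside 48.2% of all genes above the floor. Their median was 0.06 and their range -0.02 to 0.13. ATP6V1A, the catalytic subunit, had 9.79 with DMSO and 9.93 with fluphenazine (0.13), and its second probe set gave 0.02. ATP6V1B2, its non-catalytic partner in the hexamer, had 9.08 and 9.18 (0.10). ATP6V1C1, which holds V1 on V0 when the pump assembles, had 9.56 and 9.66 (0.09). Its other probe sets were higher by more, at 0.25 and 0.17 above the floor and 0.20 under it, and their average with the chosen one was 0.18. ATP6V1C1 was thus higher by all 4 probe sets. ATP6V1D, of the central stalk, had 10.14 and 10.20 (0.06), with a second probe set above the floor at 0.08. The stalk subunits ATP6V1E1 and ATP6V1G1 were at 0.01 and -0.01, and ATP6V1H, a regulatory subunit, was at 8.62 and 8.60 (-0.02). The accessory protein ATP6AP2, the prorenin receptor, had 11.76 and 11.83 (0.08), with another bright probe set at -0.10, one under the floor at -0.48 and an average of -0.17. ATP6AP1, which aids pump assembly, had 9.19 and 9.17 (-0.02).

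TFEB and TFE3 themselves showed no common direction. TFEB, at 6.61 with DMSO, was lower by a small amount with fluphenazine (-0.11), while its dimmer probe set gave 0.13. TFE3 had 9.97 and 10.07 (0.10), and its second probe set above the floor had 7.04 and 6.83 (-0.20). In both genes the probe sets disagreed in sign. Their relative MITF, which binds similar sequences, was at 7.72 and 7.84 (0.12), with a second probe set at 0.38.

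The members with the TCACGTGA letters lay close to 0, apart from CLN3. In order of difference these 7 genes were MCOLN1 at 0.10, LAMP1 at 0.04, CTSA at 0.01, ATP6V0D1 at 0.00, ATP6V1G1 at -0.01, GAA at -0.04 and CLN3 at -0.60. Their median was 0.00, with 3 higher. The 24 members above the floor with a promoter in the table that lacked the letters had a median of 0.06, with 17 higher. Members with the 6-letter CACGTG had a median of 0.03 over 10 genes, against 0.06 over the 21 without. Over all genes above the floor the median was 0.00 for the 194 whose promoter held the 8 letters and -0.01 for the 7507 whose promoter did not. MCOLN1, with the highest difference among the 7, is shown with its 250 bases before the start and both matches in capitals.
MCOLN1 (chr19:7522374-7522623, plus strand): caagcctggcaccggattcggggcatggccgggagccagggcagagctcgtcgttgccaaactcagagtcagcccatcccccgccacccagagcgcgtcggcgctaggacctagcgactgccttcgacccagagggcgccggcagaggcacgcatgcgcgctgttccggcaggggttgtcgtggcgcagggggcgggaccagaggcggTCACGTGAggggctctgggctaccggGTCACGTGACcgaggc

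**Figure D3:**
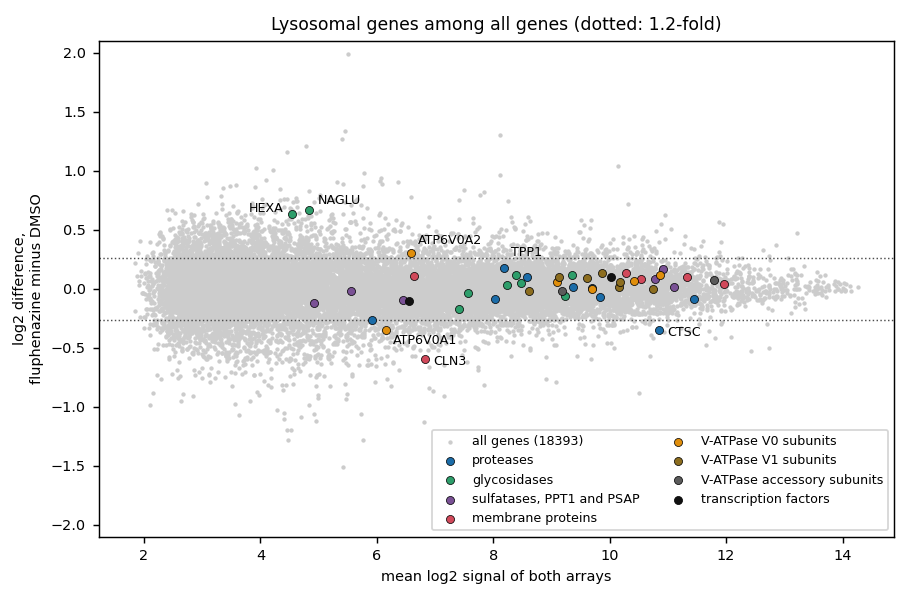
Log2 difference (fluphenazine minus DMSO) against the mean log2 signal of both arrays for 18393 genes (grey) and 47 lysosomal genes (coloured by role), with 1.2-fold as dotted lines. Nearly all lysosomal genes lie between the lines. Of those outside, CTSC is bright, CLN3, ATP6V0A1 and ATP6V0A2 are dim, and HEXA, NAGLU and, just past the line, CTSD lie under the floor.

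Probe sets of a member often disagreed in sign. Of the 16 members with several probe sets above the floor, 8 had the same sign in all of them, against 56.7% of the 3669 genes in all. Those higher throughout were LAMP2, TPP1, ATP6V0C, ATP6V1A, ATP6V1C1 and ATP6V1D. CTSC and ATP6V1G1 were lower throughout, ATP6V1G1 by only 0.01. A further 19 members had a single probe set and could not be compared in this way.

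Other lysosomal genes gave a similar picture of small differences with a few lower genes. Of 19 other hydrolases and cofactors above the floor 10 were higher, with a median of 0.01 as for the hydrolases above. The lowest were HYAL2, a hyaluronidase, at 7.63 with DMSO and 7.30 with fluphenazine (-0.33), and CTSV, a cathepsin close to CTSL, at 8.32 and 8.01 (-0.31). The highest was SCPEP1, a carboxypeptidase, at 0.13. Of 19 other membrane proteins 13 were higher, beside 48.2% of all genes above the floor, and their median was 0.08. Within the LAMP family, LAMP3 was lower, at 10.96 and 10.54 (-0.42), unlike LAMP1 and LAMP2. Within the mucolipin family, MCOLN3 was at 6.23 and 6.58 (0.35), close to the floor of 6.19. MCOLN2 was at 6.56 and 6.65 (0.09), beside 0.10 for MCOLN1. Of the other pump genes 3 of 6 were higher (median -0.01), and tissue-restricted subunits such as ATP6V1B1, ATP6V0D2 and ATP6V1G3 lay under the floor.

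Of 21 genes that sort hydrolases to the lysosome, 13 were lower, beside 51.8% of all genes above the floor, and their median was -0.03. M6PR, the cation-dependent mannose 6-phosphate receptor that carries new hydrolases from the Golgi, had 7.86 with DMSO and 7.53 with fluphenazine (-0.33). The other such receptor, IGF2R, had 8.99 and 9.13 (0.14), with another probe set at -0.11. GNPTAB, the transferase that makes the mannose 6-phosphate tag, was at 0.17, and the adaptor subunit AP1B1 at -0.34. A list of autophagy genes that TFEB is known to bind had a median of 0.14 over 13 genes, with 10 higher. Over all genes above the floor the median was -0.01 and 48.2% were higher. The median of the list was 0.07 over 7 genes without _x_at and _s_at probe sets. The list also held the hypoxia factor HIF1A, whose difference of 0.14 was the median value. RAB7A (0.41) stood on it and is counted again among the fusion genes below. WIPI1, which marks nascent autophagosomes, was at 0.54 and the cargo receptor SQSTM1 at 0.43, while ATG16L1 was at -0.48 and ATG9A at -0.31. This list was described with its largest differences already known, and no test separates it from the lysosomal genes.

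**Figure D4:**
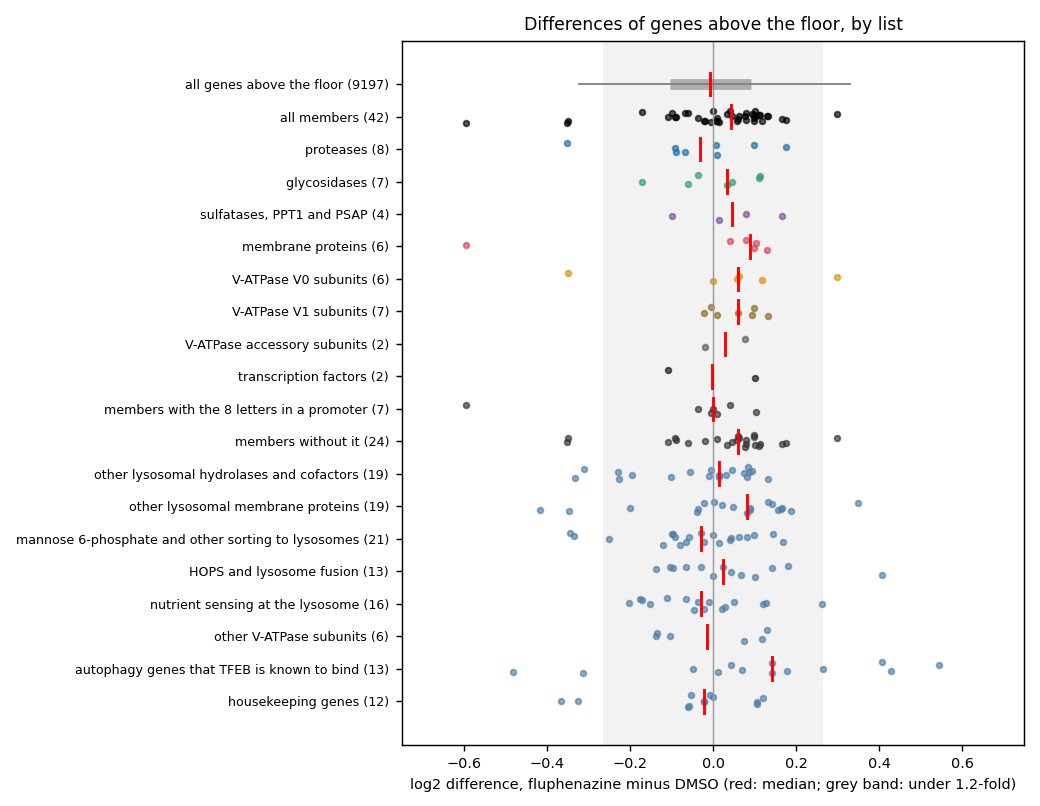
Log2 differences (fluphenazine minus DMSO) of genes above the floor by list, with the number of genes in brackets, each point a gene and the red bar the median. For all 9197 genes the thick bar spans the quartiles and the thin line 95% of genes. The medians of the lysosomal groups lie between -0.03 and 0.09.

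Epithelial, blood and osteoclast markers matched an epithelial line. All 6 epithelial markers were above the floor, from 9.70 to 12.69 with DMSO. All 7 measured macrophage and blood markers and all 4 measured osteoclast markers, of cells rich in lysosomal enzymes or proton pumps, lay under it. Of endothelial and fibroblast markers, PECAM1 (8.76 and 8.49) and COL1A1 (8.33 on both) were above it and 7 others were not. The prostate antigen gene KLK3, which androgen drives, was at 6.93 and 6.90 by a probe set of the _x_at kind. TMPRSS2, another target of the androgen receptor, was also above the floor, at 6.99 and 7.11. KLK2 lay under it, at 3.71 and 3.70, and the androgen receptor was not analysed here.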

How the data were processed

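Per the labels' protocols, RNA was isolated on columns, and a kit meant for whole transcripts added the biotin label. The probe sets are those of a 3' expression array, and how that kit was combined with it is not stated. The tools named in the submitters' processing notes are RMA, Transcriptome Analysis Console 3.1 and Affymetrix Expression Console 1.4, without their roles. The authors' deposited log2 signals, a scale judged from their range of 1.60 to 14.28, cover 47693 probe sets on 2 arrays. The sorted columns differed by at most 0.13, so the values show how a gene moved relative to others and not a change in total RNA. Probe intensities were not used here. The number of arrays limits the precision.

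Probe sets were named by the platform annotation of 2016, which gives 1 gene for 37151 and several for 1668. Current symbols were found by gene identifier for 18354 of 18393 genes. Control probe sets were left out. A gene's difference, the floor and the 1.2-fold count were computed as described above, without a test. The steps were tested on simulated data. Alternatives were 3 other scalings, 2 ways of combining the probe sets of a gene, leaving out _x_at and _s_at probe sets, other floors and other thresholds, single probe sets as units, and lists without their most extreme gene, with the floor recomputed by the same rule where values changed. In each role group, values were given for the members with the largest differences either way, the brightest one, those past 1.2-fold and those under the floor, and other members were added where probe sets could be compared. The members and lists were chosen with earlier results of these data known. Python 3.11.15 with numpy 2.4.6 and pandas 2.3.3 was used. Promoter sequences are RefSeq's (GRCh38.p14). In 3027 overlaps of promoters on opposite strands both entries were reverse complements, so that minus-strand entries are written in the direction of the gene.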

Additional observations from a re-analysis of the deposited data

How the results depend on the processing

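Centring the arrays on the median shifted every difference by the same amount, and the members' median of 0.04 became 0.053. With quantile normalization the members' median was 0.046. A limit for describing shifts was the pooled SD of probe sets over the root of the number of genes. This limit treats genes as independent and is no test. Under both scalings the medians of the 8 role groups and of the members together moved by less than it. The members' median of 0.04 was 0.064 with the 75th percentile as centre and 0.00063 with averaged probe sets. It was 0.0080 with the median of probe sets above the floor and 0.016 without _x_at and _s_at probe sets. With every probe set counted it was 0.010. Over all genes above the floor the median was 0.015 with the 75th percentile as centre and -0.018 with averaged probe sets. That median was -0.013 with the median of probe sets and 0.0019 without _x_at and _s_at probe sets. Across all lists and alternative settings, 23 medians and 27 values of single members differed in sign from the main value. Only some are given here. Within the limit above, proteases were at 0.0060 without CTSC and sulfatases, PPT1 and PSAP at -0.0043 without a floor. Accessory subunits were at -0.094 with averaged probe sets. TFEB and TFE3 together were at 0.10 with the stricter floor (75th percentile) or without the more extreme of both, and -0.11 with every probe set counted. With averaged probe sets the medians were -0.052 for other hydrolases, 0.026 for other membrane proteins, -0.066 for sorting, -0.028 for fusion, -0.13 for other pump genes and 0.10 for autophagy genes. The median of probe sets above the floor gave 0.029 for other membrane proteins and 0.10 for autophagy genes. Counting every probe set gave 0.021 for other membrane proteins, -0.058 for sorting, 0.0054 for nutrient sensing and 0.10 for autophagy genes. Without _x_at and _s_at probe sets sorting was at -0.073, nutrient sensing at 0.030, other pump genes at 0.075 and autophagy genes at 0.069. The stricter floor gave 0.13 for other membrane proteins, 0.072 for fusion, -0.10 for other pump genes and 0.22 for autophagy genes. Without the most extreme gene, other pump genes were at -0.10.

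The count of members at least 1.2-fold higher was 0 with averaged probe sets, without _x_at and _s_at probe sets, with the stricter floor and at 1.5-fold or 2-fold, and 3 without a floor. The count at least 1.2-fold lower was 1 with the stricter floor or at 1.5-fold, 0 at 2-fold and 5 with every probe set counted. Without _x_at and _s_at probe sets HEXA was at -0.16, NAGLU at -0.041 and ATP6V0A2 at -0.023, each opposite in sign, because another, dimmer probe set was then used. The cause of the other shifts was not tested. No paired analysis was possible because each treatment has 1 array, and no array could be left out.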

Other observations

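Genes of lysosome fusion and of nutrient sensing at the lysosomal surface were also read. Of 13 fusion genes above the floor 8 were higher with fluphenazine, with a median of 0.02. RAB7A, the GTPase of late endosomes and lysosomes, had 8.95 with DMSO and 9.36 with fluphenazine (0.41), but its probe sets above the floor ranged from 0.05 to 0.41. The SNARE protein STX8 was at 0.18, and VPS39, of the HOPS tethering complex, at -0.14. Of 16 nutrient-sensing genes 6 were higher, with a median of -0.03. FNIP1, a partner of folliculin in the control of TFEB and TFE3, was at 7.95 and 8.22 (0.26), RRAGC, a Rag GTPase, at 0.13, and the mTOR complex subunit MLST8 at -0.20. MTOR itself was at 7.36 and 7.19 (-0.18). All 4 LAMTOR subunits measured lay between -0.17 and 0.05.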
